A study of Mus musculus with 8 samples.

Results

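The genes described here are the mouse families that build and run cilia and sperm tails, measured by RNA-seq in whole testis. The transport class holds the Ift genes (intraflagellar transport) and the Bbs genes (the BBSome and the chaperonin-like proteins that assemble it). The motile axoneme class holds the Dnah genes (axonemal dynein heavy chains), the Dnaaf genes (dynein axonemal assembly factors) and the Rsph genes (radial spoke proteins). Members were taken by gene symbol alone: a row of the deposited table matched if its symbol began with 1 of these 5 family names followed by a number. Of 38163 rows, 52 matched, 23 in the transport class and 29 in the motile class. A member is reported if it reached 1 FPKM (fragments scaled to transcript length and to mapped library size) in at least 2 of the 8 libraries, which 45 did: 14 of 15 Ift, 8 of 8 Bbs, 11 of 16 Dnah, 5 of 5 Dnaaf and 7 of 8 Rsph rows.

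A cilium or sperm tail is built at its tip from parts made in the cell body. Intraflagellar transport trains carry those parts: the IFT-B complex, with kinesin, moves outward and the IFT-A complex, with cytoplasmic dynein, moves back, while the BBSome rides along and sorts membrane proteins. This machinery is used by immotile and motile cilia alike. Movement needs a further layer: outer and inner dynein arms bend the doublet microtubules, radial spokes pass signals to the arms from the central pair, and assembly factors fold the dynein heavy chains in the cytoplasm before they are loaded. In the testis, the genes of the motile layer are known for switching on in meiotic spermatocytes, ahead of the tail that spermatids grow.

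The study compared mice that lack Alkbh5, which encodes an enzyme that removes the N6-methyladenosine mark from RNA, with wild-type mice, and its stated aim is to learn what Alkbh5 does in spermatogenesis. The 4 groups, with 2 libraries each, are Alkbh5-null (KO) testis at postnatal day 18 (P18), wild-type (WT) testis at P18, KO testis at postnatal day 12 (P12) and WT testis at P12. Per the submitters, spermatocytes at P12 are mostly in the leptotene and zygotene stages of meiosis and at P18 mostly in pachytene and diplotene. The sources used here give neither the strain nor the form of the null allele, and they leave unsaid if both libraries of a group are different animals, so p-values measure only the spread between these libraries, which may be technical.

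The Alkbh5 transcript went against the label in 2 P18 libraries. It had 17.9 and 0.155 FPKM in KO P18 (replicates 1 and 2), 0.00985 and 9.07 FPKM in WT P18, 0.0564 and 0.0218 FPKM in KO P12, and 10.2 and 17.8 FPKM in WT P12. The library labelled KO P18 replicate 1 therefore carries the transcript, and the library labelled WT P18 replicate 1 nearly lacks it. Libraries keep their labels throughout, and the comparisons that use P18 are given as labelled, with all 8 libraries, and without these 2. Without them each P18 group is 1 library, whose spread is assumed to be that of the P12 groups. Total counts lay between 58417668 and 71537841 per library. Among marker lists of cells a testis can hold, all of the 20 Sertoli, 24 leptotene and zygotene and 23 of the 24 pachytene and diplotene genes passed the filter on low values, as did 4 of 16 round spermatid genes.

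The members separated the 8 libraries into 2 that were high and 6 that were low, and the high ones carried different labels. KO P18 replicate 1 and WT P18 replicate 2 gave 1.07% and 0.755% of their counts to the 45 members, and the other 6 libraries between 0.117% and 0.157%. The median log2 level of the motile class (CPM with a prior count of 2), relative to the mean of WT P12, was 4.31 and 0.26 in KO P18, 0.24 and 3.65 in WT P18, -0.45 and -0.50 in KO P12, and -0.13 and 0.13 in WT P12. In this class 9 of 23 members did not reach 1 FPKM in at least 2 P12 libraries, so their choice built in a P18 difference. Over the other 14 members the median was 3.56 and 0.22 in KO P18 and 0.20 and 2.98 in WT P18. For these 14 it was -0.28 and -0.31 in KO P12 and -0.10 and 0.10 in WT P12. The 9 are also in the motile ratios below. The transport class followed the same order on a smaller scale, at 1.50 and 0.02 in KO P18, 0.03 and 1.12 in WT P18, -0.17 and -0.22 in KO P12, and -0.06 and 0.06 in WT P12. Within the KO P18 label, replicate 1 exceeded replicate 2 in all 23 motile members, by a median ratio of FPKM of 14.8 (1.48 to 203), and in 21 of 22 transport members, by a median of 2.31. Within the WT P18 label, replicate 2 exceeded replicate 1 in all 45, by medians of 9.95 (1.36 to 54.3) in the motile class and 2.11 (1.05 to 4.98) in the transport class. Across labels the ratios were smaller. KO P18 replicate 2 over WT P18 replicate 1, the low pair, had a median of 1.02 in the motile and 0.965 in the transport class. KO P18 replicate 1 over WT P18 replicate 2, the high pair, had a median of 1.41 in the motile class, with all 23 members above 1, and of 1.14 in the transport class, with 17 of 22 above 1. The median over all 16702 genes tested lay between -0.01 and 0.03 in every library.

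**Figure D1:**
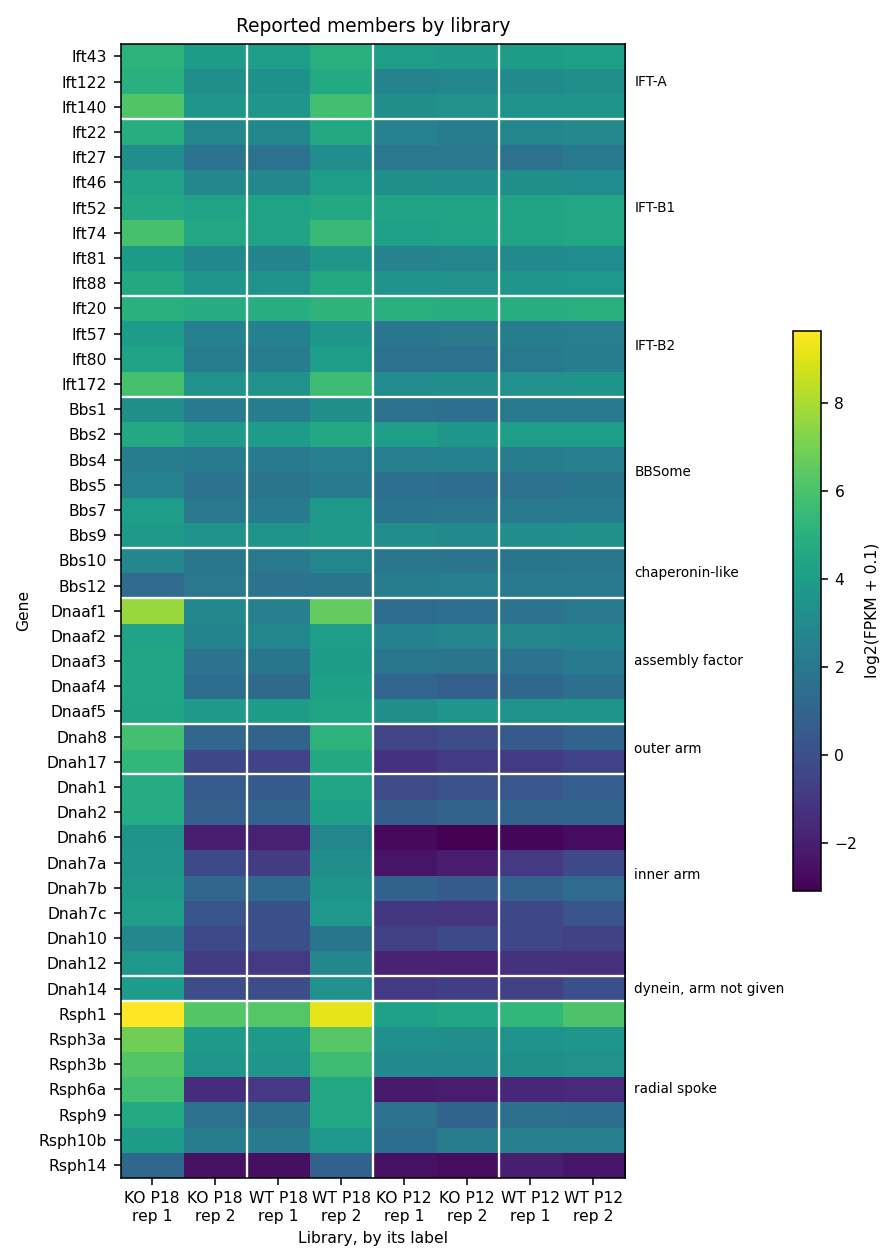
Level of each of the 45 reported members (rows, grouped by role) in each library (columns, by label), as log2(FPKM + 0.1) on the colour scale. KO P18 replicate 1 and WT P18 replicate 2 are brighter than the other 6 libraries in most rows, and the contrast is widest in the dynein heavy chains and Rsph6a.

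**Figure D2:**
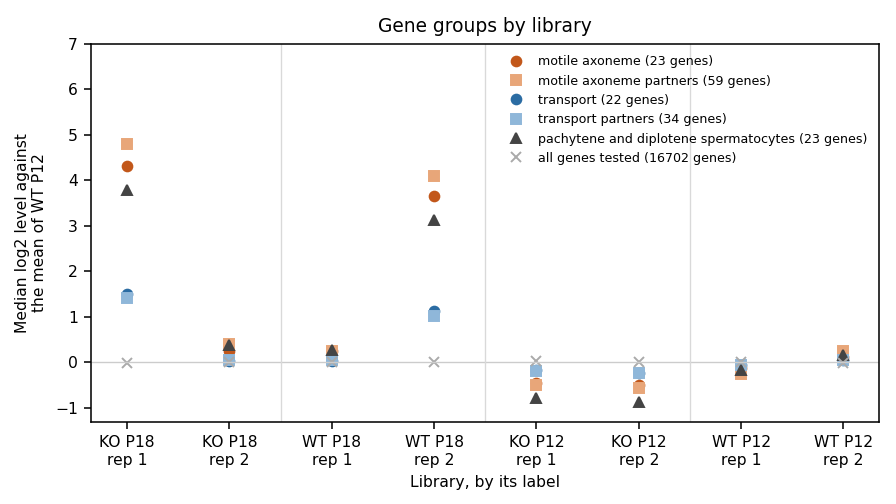
Median log2 level (CPM) of each gene group in each library, relative to the mean of WT P12 (one point per group and library). The motile class reaches 4.31 in KO P18 replicate 1 and 3.65 in WT P18 replicate 2, the transport class 1.50 and 1.12, and all genes tested stay near 0. Over the 14 motile members at 1 FPKM in at least 2 P12 libraries, not drawn, the values are 3.56 and 2.98.

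Lists of other cell types moved with this split, and their part in it was not tested. The 23 tested genes of pachytene and diplotene spermatocytes had medians of 3.79 and 0.38 in KO P18, 0.28 and 3.13 in WT P18, -0.77 and -0.87 in KO P12, and -0.17 and 0.17 in WT P12. No gene of that list was at 0 in all libraries, and its summed level was 292 to 3331 FPKM in KO P18, 274 to 2528 in WT P18, 115 to 126 in KO P12 and 213 to 290 in WT P12. Sertoli genes ran the other way, with medians of -0.80 and 0.12 in KO P18 and 0.19 and -0.57 in WT P18. Because whole testis was sequenced, fewer cells of a type and less RNA per cell cannot be told apart in any of the comparisons below. The 10 tested genes of multiciliated, efferent duct or epididymis cells, of which the multiciliated cells carry motile cilia too, summed to 66.5 and 101 FPKM in KO P18, 124 and 89.3 in WT P18, 169 and 141 in KO P12, and 123 and 125 in WT P12. Their sum was thus lower in the high library of each P18 label, and on the 6 libraries described above 3 of them rose and 4 fell with age in WT. A further 10 of the 21 in the table stayed under 1 FPKM in all libraries. Their part in the members' values was not tested either.

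The 7 matched rows that are not reported include 5 coding genes and 2 antisense transcripts. The highest level of Dnah3 in any library was 0.210 FPKM, of Dnah5 0.0856, of Dnah9 0.178, of Dnah11 0.171 and of Rsph4a 0.215. The antisense rows Ift88os and Dnah2os reached 0.520 and 0.622 FPKM. Just inside the threshold were Rsph14, whose second-highest library had 1.71 FPKM, and Dnah10, with 3.52. All 22 transport members reached 1 FPKM in at least 2 P12 libraries, but only 14 of the 23 motile members did. The other 9 (Dnah6, Dnah7a, Dnah7c, Dnah10, Dnah12, Dnah14, Dnah17, Rsph6a and Rsph14) passed only with P18 libraries counted, so a difference between P18 and P12 was built into their choice. These were the high P18 libraries for all but Dnah7c. It had 1.09 FPKM in WT P12 replicate 2 and 1.12 in KO P18 replicate 2, and so would pass without the high ones.

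Among the outer arm heavy chains, the pair known from sperm tails passed the filter and the set known from airway cilia did not. Dnah8 had 56.2 and 2.03 FPKM in KO P18, 1.85 and 35.3 in WT P18, 0.642 and 0.815 in KO P12, and 1.31 and 1.85 in WT P12. Dnah17 had 40.3 and 0.700 FPKM in KO P18, 0.597 and 24.9 in WT P18, 0.318 and 0.422 in KO P12, and 0.455 and 0.592 in WT P12. Dnah5, Dnah9 and Dnah11 stayed at or below 0.178 FPKM in all 8 libraries, the high ones included. The radial spoke head showed the same division between paralogs: Rsph6a, which the mouse sperm tail uses, reached 55.5 FPKM in KO P18 replicate 1 and 22.4 in WT P18 replicate 2, while Rsph4a, its counterpart in airway cilia, had 0.202 and 0.215 FPKM there. In the other 6 libraries Rsph6a lay between 0.122 and 0.413 FPKM. Its partner Rsph9, shared by both kinds of cilium, had 26.2 and 3.16 FPKM in KO P18, 2.91 and 23.2 in WT P18, 3.09 and 1.92 in KO P12, and 2.93 and 2.63 in WT P12.

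**Figure D3:**
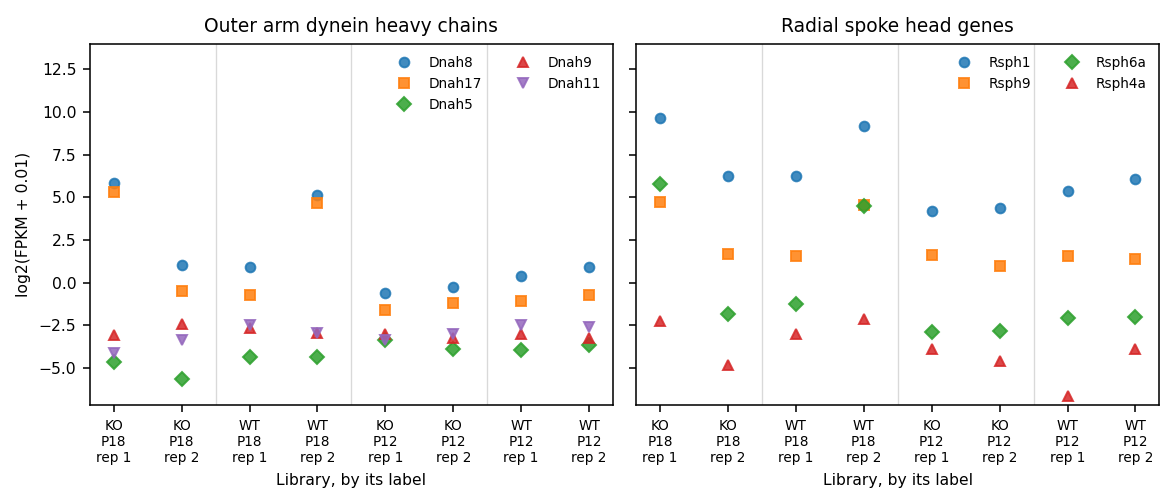
FPKM of outer arm dynein heavy chains (left) and radial spoke head genes (right) in each library, as log2(FPKM + 0.01), one point per gene and library. Dnah8, Dnah17 and Rsph6a are high in KO P18 replicate 1 and WT P18 replicate 2, while Dnah5, Dnah9, Dnah11 and Rsph4a stay under 0.22 FPKM throughout (Rsph4a is listed at 0 in WT P12 replicate 1).

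Upstream sequence is shown for 4 of the 6 members, 3 per class, that had the largest change with age in WT (described below) and a promoter in the table, namely those with an X-box arm or the repeat below in the 250 bases before the start, because RFX factors, which bind the X-box, are known regulators of ciliary genes. RefSeq promoters (build GRCm38.p6, 250 bases before to 50 after the start) matched 39 of the 45 members by symbol, with 19 promoters in the transport and 21 in the motile class. Both strands were searched for 4 motifs. GTTGCC is one arm of the X-box. The other arm with its spacer was written CNNGGNAAC, which can overlap the first on the reverse strand. For the MYB type the letters were AACNGNC. For the forkhead type they were GTAAACA. The first motif, GTTGCC, was found in 8 of 19 transport promoters (42.1%) and 8 of 21 motile promoters (38.1%), and in 12.5% of the 32851 promoters of the table. The motile matches include the copies Dnah7a, Dnah7b and Dnah7c, and Rsph14 stands more than once among the 21, so the motile promoters are not independent. CNNGGNAAC was found in 52.6% of transport, 28.6% of motile and 16.6% of all promoters. The MYB motif was found in 68.4% of transport, 57.1% of motile and 32.8% of all promoters, and the forkhead motif in 0%, 4.76% and 3.65%. Ift172, one of the 6, holds GTTGCC in the searched window but not in its first 250 bases. The runs below are the 250 bases before the start, read 5′ to 3′ on the gene's strand, with capitals for GTTGCC and CNNGGNAAC on either strand and, in Dnah6, for the repeat described next.
Ift140, chr17:25015836-25016085, plus strand: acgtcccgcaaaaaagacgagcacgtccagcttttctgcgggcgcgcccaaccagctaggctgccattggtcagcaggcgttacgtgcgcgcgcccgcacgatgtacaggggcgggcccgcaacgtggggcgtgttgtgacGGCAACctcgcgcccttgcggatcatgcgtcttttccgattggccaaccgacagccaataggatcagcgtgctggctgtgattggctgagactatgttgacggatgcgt
Ift22, chr5:136907900-136908149, plus strand: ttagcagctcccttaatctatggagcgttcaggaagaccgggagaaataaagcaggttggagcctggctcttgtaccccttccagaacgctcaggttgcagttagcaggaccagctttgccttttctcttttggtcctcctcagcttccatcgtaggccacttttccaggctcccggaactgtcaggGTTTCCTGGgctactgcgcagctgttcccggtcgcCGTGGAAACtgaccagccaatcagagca
Rsph6a, chr7:19054437-19054686, plus strand: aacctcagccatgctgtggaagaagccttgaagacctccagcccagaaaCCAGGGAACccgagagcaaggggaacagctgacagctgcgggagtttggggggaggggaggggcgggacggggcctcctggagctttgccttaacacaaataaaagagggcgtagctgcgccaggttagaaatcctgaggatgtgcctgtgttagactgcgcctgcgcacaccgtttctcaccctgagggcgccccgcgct
Dnah6, chr6:73221632-73221881, minus strand: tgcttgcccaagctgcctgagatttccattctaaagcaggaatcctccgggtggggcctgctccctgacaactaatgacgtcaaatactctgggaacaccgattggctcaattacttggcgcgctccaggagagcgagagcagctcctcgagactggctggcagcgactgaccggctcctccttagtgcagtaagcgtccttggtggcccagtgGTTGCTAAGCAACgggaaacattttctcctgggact

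Dnah6 holds neither X-box arm as searched, but 36 to 24 bases before its start stands an inverted repeat, in which the arm GTTGC is followed after 3 bases by its reverse complement GCAAC. The repeat was noticed after the letters were seen, and a count was then made of arms 3 or 4 bases apart in the 300-base window. It stood in 5 of 21 motile promoters (23.8%), those of Dnah6, Dnah7a, Dnah7b, Dnah7c and Rsph3b, in 0 of 19 transport promoters and in 0.399% of all promoters. Dnah7a, Dnah7b and Dnah7c are near-identical copies, so their promoters are not independent. These matches describe letters in a window and show no binding.

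The first genotype comparison sets KO against WT at P12, before most spermatocytes reach pachytene, and it uses the 4 P12 libraries alone. Most members had lower values in KO, more so in the motile class, but none passed the test after adjustment over all genes. With the edgeR quasi-likelihood test, 0 of 45 members were called at an adjusted p under 0.05, against 9 of all genes (0.0539%). At an unadjusted p under 0.05, 19 members were lower in KO and 0 higher (9 transport, 10 motile), and 8.27% of all genes were lower. DESeq2 called 9 members, all lower in KO, against 3.24% of all genes called lower, and limma called 0. Both KO libraries lay below both WT libraries in 31 members (14 of 22 transport, 17 of 23 motile), where 24% of all genes did the same. The median log2 difference was -0.46 in the motile class, -0.35 over its 14 members present at P12, -0.20 in the transport class and 0.01 over all genes. Of these 14, Dnah1 and Dnah8 reached 1 FPKM at P12 in the WT libraries only. A lower value in KO is thus built into their place among the 14.

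The radial spoke gene Rsph1 (ENSMUSG00000024033, chromosome 17, 31255019 to 31277383 on GRCm38), which encodes a spoke head protein, was the most abundant member in WT P12. It had 18.3 and 20.6 FPKM in KO P12, against 40.9 and 67.2 FPKM in WT P12. In KO P12 Ift20, with 29.8 and 28.4 FPKM, stood above it. The log2 difference of Rsph1 was -1.46 ± 0.22 (SE, n = 2 per group, adjusted p = 0.0756). Rsph1 made up 25.7% and 26.5% of the summed FPKM of the motile class in KO P12, against 39.0% and 48.6% in WT P12. The other 6 radial spoke genes had log2 differences between -0.85 and -0.13. Rsph6a and Rsph14, both at -0.85, reached at most 0.238 and 0.146 FPKM in any P12 library. The lowest of the rest was Rsph10b at -0.52.

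Several inner and outer arm heavy chains also had lower values in KO at P12. Dnah7a (chromosome 1, 53397006 to 53706784), an inner arm chain, had 0.0908 and 0.140 FPKM in KO P12, against 0.405 and 0.718 in WT P12. Its copy Dnah7c had 0.396 and 0.359 FPKM in KO P12, against 0.691 and 1.09 in WT P12. The log2 differences of Dnah7a and Dnah7c were -2.26 ± 0.35 (adjusted p = 0.0802) and -1.23 ± 0.24 (adjusted p = 0.113). The division of reads among Dnah7a, Dnah7b and Dnah7c is uncertain because the genes are so alike. Dnah8 (chromosome 17, 30624354 to 30875264) differed by -1.10 ± 0.18 (adjusted p = 0.0875) at the levels given above. Dnah8 overlaps Glo1 on the opposite strand. Across the 11 Dnah members the median difference was -0.65. Of these, 10 were below 0, with Dnah10 at 0.08, where 7884 of all 16702 genes were below 0. Most of the 11 were low at P12. Dnah6, Dnah7a, Dnah7c, Dnah10, Dnah12, Dnah14 and Dnah17 did not reach 1 FPKM in at least 2 P12 libraries, and Dnah1 and Dnah8 did so in WT alone. Dnah2 and Dnah7b, above 1 FPKM in every P12 library, differed by -0.17 and -0.45. The 5 assembly factors were closer to 0, between -0.46 and -0.05.

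In the transport class the differences were smaller. Ift80 and Ift122, subunits of IFT-B and IFT-A, had 3.06 and 3.04 FPKM and 6.02 and 6.71 FPKM in KO P12, against 4.06 and 4.73 FPKM and 8.04 and 9.33 FPKM in WT P12. Ift81, which binds tubulin cargo, had 5.77 and 6.44 FPKM in KO P12, against 7.77 and 8.43 in WT P12. Bbs1, a BBSome subunit, had 3.02 and 2.87 FPKM in KO P12, against 3.996 and 4.50 in WT P12. The log2 differences were -0.51 ± 0.10 for Ift80, -0.43 ± 0.10 for Ift122, -0.39 ± 0.10 for Ift81 and -0.51 ± 0.11 for Bbs1. Adjusted p in the edgeR test ran from 0.111 to 0.162. These 4 genes were named for the lowest p in their class, so the lack of overlap between their groups adds no support. The chaperonin-like genes Bbs10 and Bbs12 stood at 0.02 and 0.17, and Bbs12 was the 1 member with both KO libraries above both WT libraries. Of all 16702 genes, 3564 lay that way.

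**Figure D4:**
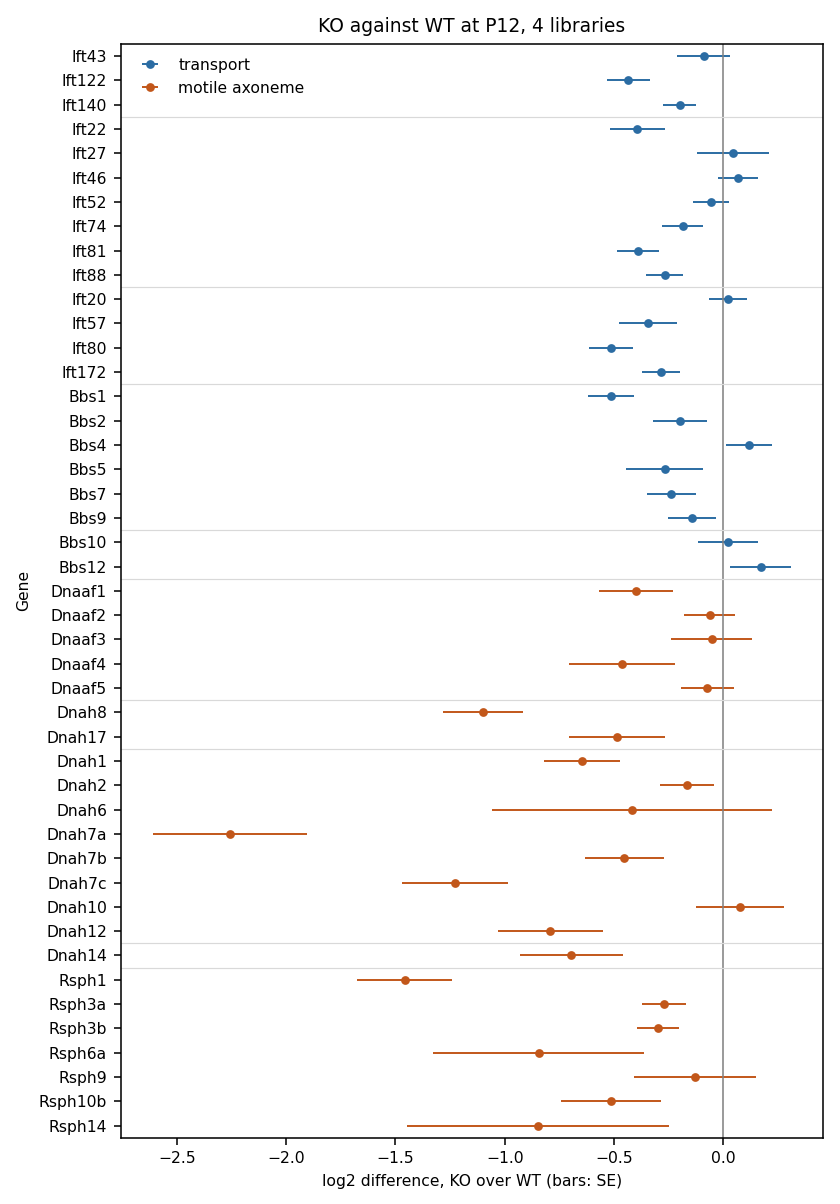
Log2 difference of KO over WT at P12 for each reported member (points, coloured by class, bars the SE, 4 libraries). Of the 45 points, 38 lie below 0, where 7884 of all 16702 genes do. The points run from -2.26 for Dnah7a to 0.17 for Bbs12, and none passed the adjusted threshold.

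Genes that work with the members had like values at P12. Beside the counts below, 1382 of all 16702 genes were lower (8.27%) and 889 higher at an unadjusted p under 0.05. Partners that passed the filter through the high P18 libraries are among those tested. Of 34 tested partners in transport (other IFT, BBSome and motor subunits), 13 were lower and 1 higher at an unadjusted p under 0.05, with a median of -0.22, and of 59 partners in the motile axoneme 27 were lower and 1 higher, with a median of -0.63. The partners with the lowest p were Wdr35 (an IFT-A subunit, -0.65 ± 0.12) and Zmynd10 (a dynein assembly factor, -3.14 ± 0.51), which had 0.295 and 0.363 FPKM in KO P12, against 1.55 and 4.45 in WT P12. Among 16 tested transcription regulators of ciliary genes, 7 were lower and 0 higher, led by Sox30 (-1.16 ± 0.20) and Rfx2 (-0.89 ± 0.17), which encode regulators of late spermatogenesis. Rfx2 had 1.34 and 1.26 FPKM in KO P12, against 2.07 and 2.82 in WT P12. None of these genes was called. Stage markers moved with the members, and their part in the values was not tested. Leptotene and zygotene genes had a median of -0.58 (19 of 24 lower and 0 higher at an unadjusted p under 0.05), pachytene and diplotene genes -0.93 (15 of 23 lower, 0 higher), and Sertoli genes 0.24 (9 of 20 higher, 0 lower). Medians were 0.07 for 19 spermatogonial, 0.26 for 11 Leydig, 0.34 for 4 round spermatid, 0.23 for 10 multiciliated or epididymal and 0.09 for 15 hepatocyte genes.

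The change with age in WT asks what happens to these families as spermatocytes move into pachytene and diplotene. As labelled, WT P18 joins a high and a low library, and edgeR called 0 of 45 members (0% of all genes), with 0 at an unadjusted p under 0.05 and 0 by DESeq2 or limma. The labelled medians were 2.78 in the motile class, 2.17 over its 14 members present at P12, and 0.69 in the transport class. Without the 2 P18 libraries against their label, 14 of the 14 motile members present at P12 and 19 of 22 transport members rose from P12, where 26.4% of all genes rose and 18.6% fell. The other 9 motile members, chosen through their P18 level, were called as well, which brings the count to 42 of 45 and adds nothing to it as support. The median log2 difference was 3.61 in the motile class, 2.97 over its 14 members present at P12, 1.12 in the transport class and -0.00 over all genes. By role the medians were 5.21 for the 2 outer arm chains, 4.09 for 8 inner arm chains, 3.24 for 7 radial spoke genes, 2.19 for 5 assembly factors, 1.81 for 4 IFT-B2, 1.75 for 3 IFT-A, 1.14 for 7 IFT-B1, 0.73 for 6 BBSome and 0.43 for 2 chaperonin-like genes. Members chosen through their P18 level are in the outer arm (Dnah17), inner arm (Dnah6, Dnah7a, Dnah7c, Dnah10, Dnah12) and spoke (Rsph6a, Rsph14) medians. The order of the roles therefore rests in part on that choice.

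Dnah6, Rsph6a, Dnah17 and Dnah12, under 1 FPKM in every P12 library, passed the filter only through the high P18 libraries, so their differences with age are given as a description with no test, again without the 2 libraries. Dnah6 (ENSMUSG00000052861, chromosome 6, 73017606 to 73221651), an inner arm chain, had 6.68 FPKM in WT P18 replicate 2, against 0.0314 and 0.0597 in WT P12, a log2 difference of 7.35 ± 0.46. Rsph6a (ENSMUSG00000040866, chromosome 7, 19054690 to 19074447) had 22.4 FPKM, against 0.227 and 0.238 in WT P12 (6.75 ± 0.19). Dnah17 differed by 5.75 ± 0.20 and Dnah12, an inner arm chain, by 4.76 ± 0.15. Dnaaf1, an assembly factor already above 1 FPKM at P12, had 96.1 FPKM in WT P18 replicate 2, against 3.28 and 3.97 in WT P12 (4.91 ± 0.14, adjusted p = 6.14e-05), and ranked 2 of 45 by FPKM there, against 28 in WT P12. Dnaaf5 had the smallest motile difference, 1.07 ± 0.14 (adjusted p = 0.00251), with 20.4 FPKM in WT P18 replicate 2, against 10.7 and 11.3 in WT P12. Rsph1 was the most abundant member in that library, with 580.4 FPKM.

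The transport class rose in an uneven way. Ift140 (ENSMUSG00000024169, chromosome 17, 25016085 to 25099495), the IFT-A core subunit whose promoter is shown above, had 55.4 FPKM in WT P18 replicate 2, against 10.9 and 11.3 in WT P12 (2.50 ± 0.08, adjusted p = 6.17e-05). Ift172, the largest IFT-B protein, had 50.2 FPKM, against 9.94 and 11.1 in WT P12 (2.44 ± 0.09, adjusted p = 7.12e-05). Ift80 differed by 2.08 ± 0.10 (adjusted p = 0.000122), and the small GTPase gene Ift22 by 1.99 ± 0.14 (adjusted p = 0.000279), with 24.5 FPKM against 6.69 and 7.27 in WT P12. Bbs7 led its family at 1.76 ± 0.12 (adjusted p = 0.000257), and Bbs9 differed by 0.74 ± 0.13 (adjusted p = 0.00613). The members not called were Bbs4, with 4.95 FPKM in WT P18 replicate 2, against 4.64 and 5.34 in WT P12, Bbs5, with 4.47 against 3.07 and 3.54, and Bbs12, with 3.40 against 4.40 and 4.48. Ift20 and Ift52, the most abundant transport members at P12 with Ift74, had 37.0 and 24.1 FPKM in WT P18 replicate 2, against 28.3 and 29.7, and 20.3 and 22.1, in WT P12. As labelled, the 12 members with a WT difference given here or in the paragraph before (Bbs9 lowest at 0.55, Dnah6 highest at 6.39) were not called, with adjusted p from 0.614 to 0.626.

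The same change with age in KO was small in the library that lacks Alkbh5. As labelled, edgeR called 0 of 45 members (0% of all genes). At an unadjusted p under 0.05, 17 were higher (11% of all genes), limma called 0, and DESeq2 called 19, all higher (10.6% of all genes). Of the 17, 5 were transport members and 5 stood among the 14 motile members present at P12. Labelled medians were 4.32 in the motile class, 2.97 over those 14 and 1.04 in the transport class, with KO P18 replicate 1 included. Without the 2 libraries, 14 members rose from P12, 10 motile and 4 transport, and 0 fell, where 7.08% of all genes rose and 3.74% fell. The medians were then 0.66 in the motile class, 0.46 over its 14 members present at P12, and 0.24 in the transport class. All member counts in this paragraph include the 9 motile members chosen through their P18 level, and those 9 add no support. On the 6 libraries DESeq2 called 18 members, all higher, where it called 11.8% of all genes higher, and limma called 0.

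Dnah7a and Rsph1 had the largest differences among the named members in KO. Rsph1 had 76.1 FPKM in KO P18 replicate 2, against 18.3 and 20.6 in KO P12 (1.97 ± 0.25), and Dnah7a had 0.714 FPKM, against 0.0908 and 0.140 (2.63 ± 0.36). Dnah7c differed by 1.57 ± 0.25 and Dnah12 by 1.43 ± 0.16. Dnah7a, Dnah7c and Dnah12 are among the 9 motile members chosen through their P18 level, so their differences are given with no test. In the transport class Ift122 (0.55 ± 0.11, adjusted p = 0.0357) and Bbs1 (0.55 ± 0.12, adjusted p = 0.0422) rose, while Ift57 (0.52 ± 0.14, adjusted p = 0.0677) and Bbs9 (0.35 ± 0.13, adjusted p = 0.133) did not pass. As labelled, the differences of these 8 members lay between 0.74 (Bbs9) and 6.10 (Dnah7a), and none was called (adjusted p = 0.262 for each). The level reached in KO P18 replicate 2 was close to WT P12 for several of them. Ift122, for instance, had 9.30 FPKM there, beside 8.04 and 9.33 in WT P12, and Bbs1 4.30 beside 3.996 and 4.50.

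**Figure D5:**
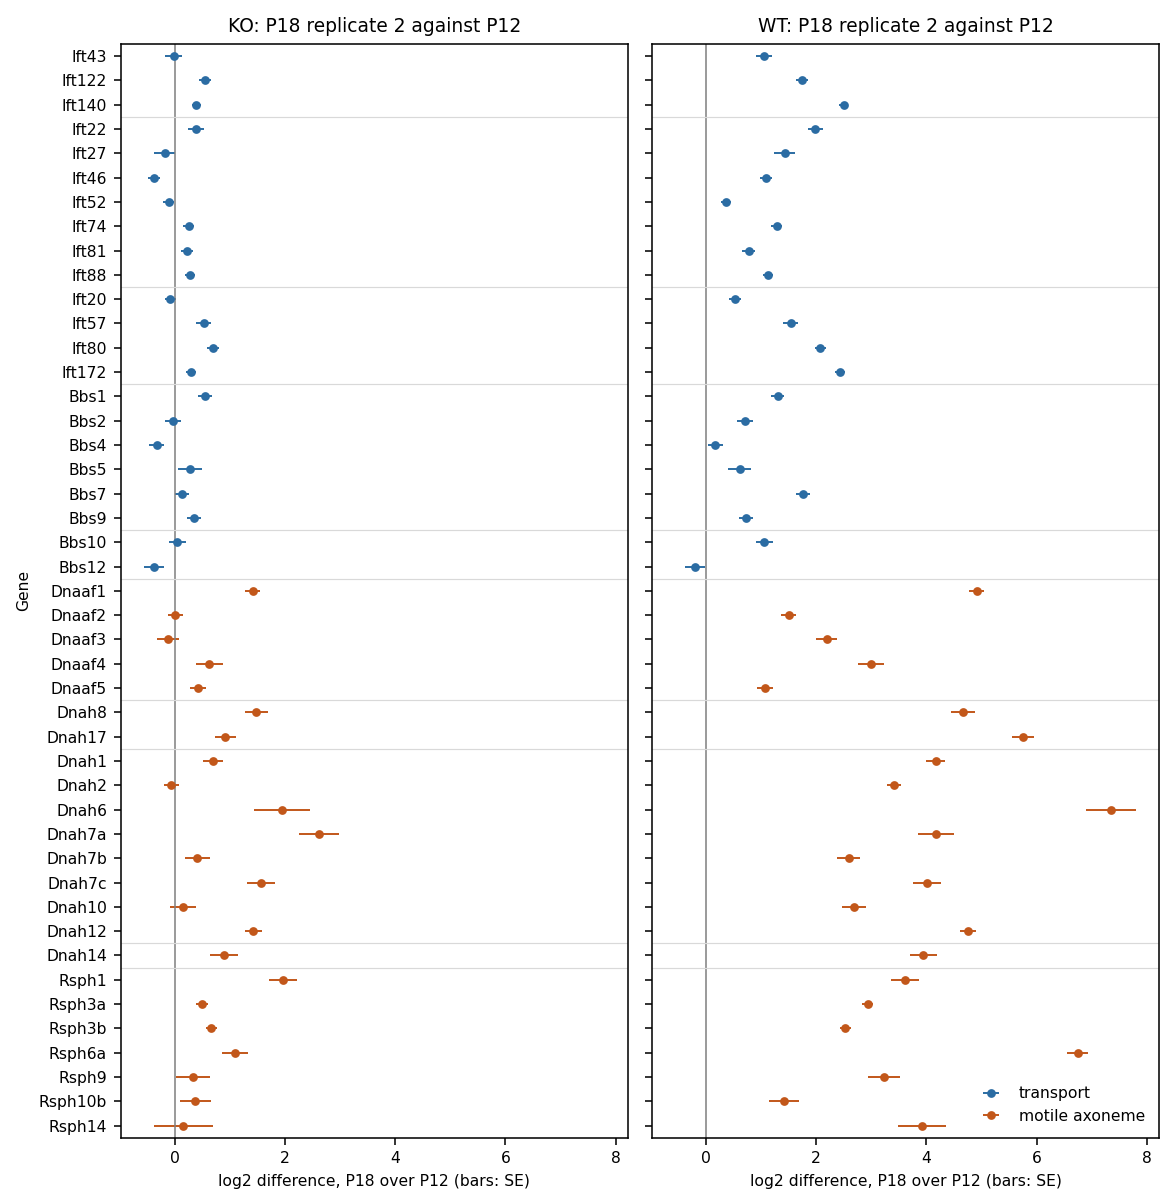
Log2 difference of P18 over P12 for each reported member in KO (left) and WT (right), from the 6 libraries left without the 2 P18 libraries against their label (points, coloured by class, bars the SE). The WT points reach 7.35 (Dnah6) and the KO points 2.63 (Dnah7a), and in WT the motile points lie to the right of most transport points.

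KO against WT at P18 asks how the families differ once pachytene and diplotene cells are present. As labelled, edgeR called 0 of 45 members (0% of all genes), with 0 at an unadjusted p under 0.05 and 0 by DESeq2 or limma. The groups overlapped in all 45 members, where 6.71% of all genes had both KO libraries below both WT libraries and 3.38% had both above. The labelled medians were 0.62 in the motile and 0.27 in the transport class. Without the 2 libraries the direction turned: 14 of the 14 motile members present at P12 and 19 of 22 transport members were lower in KO P18 replicate 2 than in WT P18 replicate 2 and 0 higher, where 22.4% of all genes were lower and 15.6% higher, with medians of -2.76 and -1.18. The other 9 motile members were lower too, which their choice through WT P18 replicate 2 builds in for all but Dnah7c. With these 9 the motile median was -3.63. The direction at P18 therefore rests on which library of each label is used. Rsph6a had 55.5 and 0.273 FPKM in KO P18, against 0.413 and 22.4 in WT P18, and its difference was 1.48 as labelled and -6.48 ± 0.26 without the 2 libraries, given with no test since Rsph6a is among those 9. Dnaaf1 had 205 and 7.22 FPKM in KO P18, against 5.46 and 96.1 in WT P18, with differences of 1.25 and -3.88 ± 0.17 (adjusted p = 0.000376). Dnah10, Rsph3b, Ift74, Ift57 and Ift81 turned from 0.98, 0.67, 0.52, 0.37 and 0.36 to -2.44, -2.15, -1.21, -1.34 and -0.93. Bbs5 moved from 0.34 to -0.59 ± 0.25 and was not called either way (adjusted p = 0.109). Liver transcripts were high under the KO P18 label whichever library was used, and their part in these values was not tested: the 15 hepatocyte genes summed to 280 to 303 FPKM in KO P18 and 19.5 to 39.3 in WT P18.

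The interaction (change with age in KO less that in WT) followed the same split. As labelled, edgeR called 0 of 45 members (0% of all genes), with 0 at an unadjusted p under 0.05 and 0 by DESeq2 or limma, and medians of 1.13 in the motile and 0.54 in the transport class. Without the 2 libraries, 12 of the 14 motile members present at P12 and 15 of 22 transport members had a lower change with age in KO than in WT and 0 a higher one, where 11.1% of all genes were lower and 2.68% higher, and the medians were -2.34 and -1.02. Over all 23 motile members, the 9 chosen through their P18 level included, 20 were lower and the median was -2.53. Dnah8 differed by -3.18 ± 0.31 (adjusted p = 0.00468) and Rsph1 by -1.64 ± 0.37 (adjusted p = 0.041). Dnah7c and Dnah7a, both among those 9, stood at -2.44 ± 0.37 and -1.55 ± 0.51. Ift122 (-1.20 ± 0.16, adjusted p = 0.00962) and Bbs1 (-0.75 ± 0.17, adjusted p = 0.0426) passed, and Ift81 (-0.55 ± 0.16, adjusted p = 0.0752) and Bbs5 (-0.34 ± 0.30, adjusted p = 0.486) did not. This comparison uses the libraries of the age comparisons, so it adds no separate support to them.

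Partner genes and regulators followed the age comparisons. As labelled, edgeR called 0 of 59 motile partners and 0 of 34 transport partners in either genotype, with medians of 4.93 and 1.18 in KO (36 and 8 higher at an unadjusted p under 0.05) and 3.17 and 0.68 in WT (1 and 0 higher). Of all 16702 genes, 1839 were higher at that threshold in KO (11%) and 537 in WT. Regulators, with 0 called as well, had medians of 1.16 in KO and 0.62 in WT, and pachytene and diplotene genes 3.92 and 2.35. The values that follow are without the 2 libraries, and partners that passed the filter through the high P18 libraries are among them. In KO, 25 of 59 motile partners and 7 of 34 transport partners rose and 0 fell, with medians of 1.10 and 0.21, where 7.08% of all genes rose. In WT, 58 of 59 motile partners and 26 of 34 transport partners rose and 0 and 2 fell, with medians of 4.07 and 1.01, where 26.4% of all genes rose and 18.6% fell. Dnaic1, an outer arm intermediate chain, had 38.7 and 3.16 FPKM in KO P18, 3.52 and 29.0 in WT P18, 1.31 and 1.30 in KO P12, and 2.12 and 2.51 in WT P12. Of 16 regulators, 5 rose in KO and 8 in WT. Rfx2 differed by 1.43 ± 0.18 in KO (adjusted p = 0.0148) and by 3.45 ± 0.18 in WT (adjusted p = 0.000122), with 34.4 and 3.49 FPKM in KO P18 and 3.29 and 23.5 in WT P18. Among stage markers, pachytene and diplotene genes had medians of 1.25 in KO (16 of 23 rose) and 3.12 in WT (20 rose, 1 fell), leptotene and zygotene genes 0.65 and 0.64, round spermatid genes -1.04 and 2.42 over 4 tested, Sertoli genes -0.16 and -0.58, spermatogonial genes -0.14 and -0.64 and Leydig genes 0.93 and 0.37. The regulators Sox30, Mybl1 and Tcfl5 also stand in the pachytene list, and Meig1 in both the motile partner and the pachytene list, so these lists are not independent.

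Some values carry a limit from the gene models. Of the 45 reported members, 25 overlap a gene on the opposite strand and 8 a gene on the same strand by the positions in the deposited table, among them Rsph10b with Pms2, and the strand setting of the counting is not given in the sources used here. The positions of 40 of the 45 equal those in GENCODE M21. Rsph3a and Rsph3b are near-identical copies: their ratio of FPKM was 1.57 and 1.06 in KO P18, 1.12 and 1.56 in WT P18, 1.25 and 1.14 in KO P12, and 1.16 and 1.18 in WT P12. The ratio of Dnah7a to Dnah7b was 0.856 and 0.352 in KO P18, 0.189 and 0.797 in WT P18, 0.0529 and 0.104 in KO P12, and 0.228 and 0.292 in WT P12. Within both sets of copies the ratio was highest in the 2 high P18 libraries.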

How the data were processed

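Poly(A) RNA of whole testis was sequenced as paired reads of 150 bases in 8 libraries, 2 in each of 4 groups, per the labels' protocols. Per the submitters' processing notes the tools were cutadapt 1.9, HISAT2 2.2.1 and StringTie 2.1.6 on GRCm38. The deposited table gives, for 38163 genes, the authors' raw counts and the authors' FPKM values. The counter and its strand setting are not given in the sources used here. Library groups and the fits follow the labels.

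The 16702 genes with at least 1 FPKM in at least 2 libraries were tested on the deposited counts with edgeR 4.0.16 (R 4.3.3), using TMM scaling, the quasi-likelihood test and Benjamini-Hochberg adjustment over all of them. A gene was called at an adjusted p under 0.05. KO against WT at P12 used the 4 P12 libraries (2 residual degrees of freedom). The genotype comparison at P18, the age comparison within each genotype and their interaction used all 8 (4 residual degrees of freedom), and were repeated on 6 (2 residual degrees of freedom) leaving out both P18 libraries in which Alkbh5 contradicts the label. Errors given as ± are standard errors of the log2 difference, derived as its absolute value over the square root of the test's F statistic. Class medians per library are edgeR log2 CPM (prior count 2) less the mean of WT P12.

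The alternatives were RLE and upper-quartile scaling, other filters on low values, DESeq2 1.42.0, limma 3.58.1 on log2(FPKM + 1) or log2(FPKM + 0.1), other libraries in the fit, a replicate block and leaving out each library. Fits of DESeq2 and limma on the 6 libraries and a crossed P18 block were chosen after seeing the data. The edgeR steps were tested on simulated data. The simulated spread was near that of the P12 fit (common dispersion 0.018) and far below that of the labelled fit on 8 libraries (0.226). The simulation therefore does not bear on how the labelled P18 fits perform. Members and gene lists were chosen with earlier results of these data known. Fold changes are given for the 4 members of each class with the lowest p in a comparison, and for the 5 of each class with the largest WT change with age on 6 libraries, and genes outside the families only for the 3 lowest p of a list. Figures were drawn with matplotlib 3.10.9.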

Additional observations from a re-analysis of the deposited data

How the results depend on the processing

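The results that use P18 turned on the 2 P18 libraries against their label. Without them the members called went from 0 to 42 for KO against WT at P18 (DESeq2 42, limma 39), from 0 to 42 for age in WT (42, 40), from 0 to 14 for age in KO (18, 0) and from 0 to 35 for the interaction (39, 32). Over all genes, edgeR, DESeq2 and limma on the 6 libraries called 6357, 6498 and 6365 at P18, 7507, 7502 and 7937 for age in WT, 1806, 3033 and 229 for age in KO, and 2304, 3653 and 3037 for the interaction. These DESeq2 and limma fits were chosen after seeing the data. The member counts and motile medians in this section include the 9 motile members chosen through their P18 level. Where P18 is compared, these 9 add no support. The medians of the transport and motile classes became -1.18 and -3.63 at P18, 0.24 and 0.66 for age in KO and -1.02 and -2.53 for the interaction. Over the 14 motile members present at P12 they were -2.76, 0.46 and -2.34. At P18 the direction reversed for Bbs5 (-0.59), Ift74 (-1.21), Ift81 (-0.93), Ift57 (-1.34), Dnah10 (-2.44), Dnaaf1 (-3.88), Rsph3b (-2.15) and Rsph6a (-6.48). In the interaction it reversed for Bbs5 (-0.34), Ift81 (-0.55), Bbs1 (-0.75), Ift122 (-1.20), Dnah7a (-1.55), Rsph1 (-1.64), Dnah7c (-2.44) and Dnah8 (-3.18).

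With all labels kept, DESeq2 called 9 members at P12 and 19 for age in KO, and limma on log2(FPKM + 1) gave motile medians of -0.26 at P12 and 1.84 for age in KO (2.08 with 0.1 added), where a larger pseudocount shrinks low genes. Genes called at P12 numbered 9 with TMM, 9 with RLE, 2 with upper-quartile scaling or filterByExpr, 0 with no filter or all 8 libraries, 659 with DESeq2 and 439 with the block.

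The replicate numbers did not pair the libraries: deviations from the group means correlated at -0.0045 at P12 and -0.912 at P18. The replicate block called 7 members at P12 and 0 in the other 4 comparisons, as did the crossed P18 pairing in those 4.

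Leaving out single libraries gave 0 to 4 members called at P12 (4 without WT P12 replicate 1, 1 without WT P12 replicate 2) and 0 in the other comparisons. Over all genes the same fits called 6 to 207 at P12 (207 and 37 without WT P12 replicates 1 and 2). The P12 medians ran from -0.65 to -0.26 in the motile and -0.25 to -0.16 in the transport class. The P18 medians ran from -2.74 to 3.31 and -0.70 to 1.02, lowest without KO P18 replicate 1 and highest without WT P18 replicate 2. Age in WT gave 0.21 to 3.61 and 0.025 to 1.12, lowest without WT P18 replicate 2, age in KO 0.66 to 5.28 and 0.24 to 1.59, lowest without KO P18 replicate 1, and the interaction -1.83 to 4.25 and -0.50 to 1.20. Single members at P18 ran over -0.35 to 0.81 (Bbs5), -0.65 to 1.43 (Ift74), -0.48 to 1.02 (Ift81), -0.84 to 1.15 (Ift57), -1.74 to 2.39 (Dnah10), -2.95 to 4.60 (Dnaaf1), -1.44 to 2.13 (Rsph3b) and -5.51 to 6.40 (Rsph6a). For age in WT, Ift172 ran over -0.014 to 2.44. In the interaction the ranges were -0.095 to 1.06 (Bbs5), -0.10 to 1.40 (Ift81), -0.29 to 1.32 (Bbs1), -0.62 to 1.78 (Ift122), -0.61 to 6.40 (Dnah7a), -0.80 to 4.25 (Rsph1), -1.53 to 4.79 (Dnah7c) and -2.25 to 5.38 (Dnah8).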
